A study of Mus musculus with 19 samples.

Results

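The 10 core circadian clock genes Arntl, Clock, Npas2, Per1, Per2, Per3, Cry1, Cry2, Nr1d1 and Dbp were followed in whole perigonadal adipose tissue of C57BL/6 mice. They were chosen by gene symbol as activators, repressors and a direct output of the molecular clock, not by their values. Earlier results of these data were known when the choice was made. All 10 were among the 24348 genes listed, and all 10 passed the filter on low counts, as did 16015 genes in all. Of the 19 RNA sequencing libraries, 4 came from mice on a high-fat diet (HFD, labelled 60%) collected while fed at peak weight (HFD fed) and 4 from such mice after 24 hours without food (HFD fasted). The other model of weight gain used Ensure, a liquid nutrition drink, with 6 libraries from fed mice at peak weight (Ensure fed) and 5 after 24 hours without food (Ensure fasted). The labels of these samples name no lean group, other genotype or drug treatment, and diet below stands for the whole model of weight gain. A library's name below joins its group and its title number.

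The mammalian clock is a feedback loop of transcription. The proteins of Arntl (also called Bmal1) and Clock, or of Clock's close relative Npas2, bind E-box sequences as a pair and switch on the Period (Per) and Cryptochrome (Cry) genes, whose proteins then block that pair. A second loop runs through Nr1d1 (REV-ERB alpha), a nuclear receptor that represses Arntl, and the pair also drives Dbp, a transcription factor that binds D-box sequences. In fat, as in other peripheral tissues, Arntl transcripts peak at another time of day than those of the Per genes, Nr1d1 and Dbp, and feeding times can set the phase of the loop. The hour of tissue collection, the age and the sex of the mice are not in the labels, so a difference in hour of collection and a difference between groups cannot be told apart in any comparison below. No library is part of a time course, and a phase could therefore not be measured. What could be measured was whether activators and their targets were high in the same or in different libraries.

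The 250 bases before the transcription start of 3 repressors are shown because they hold the E-box or D-box letters through which the loop is known to work, and because 2 of these genes, Per1 and Per3, were called together below. Sequences are from RefSeq for GRCm38.p6, a later build than the mm9 named in the submitters' processing notes, and read 5′ to 3′ on the strand of the gene. Capitals mark an E-box, CACGTG, or a D-box, TTATGNAA, where N is any base.
Per1, chr11:69098699-69098948, plus strand: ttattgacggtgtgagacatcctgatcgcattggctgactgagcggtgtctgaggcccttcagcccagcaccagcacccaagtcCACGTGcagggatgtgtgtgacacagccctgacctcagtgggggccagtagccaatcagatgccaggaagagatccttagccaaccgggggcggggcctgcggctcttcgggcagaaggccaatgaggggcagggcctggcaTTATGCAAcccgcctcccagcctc
Per3, chr4:151044666-151044915, minus strand: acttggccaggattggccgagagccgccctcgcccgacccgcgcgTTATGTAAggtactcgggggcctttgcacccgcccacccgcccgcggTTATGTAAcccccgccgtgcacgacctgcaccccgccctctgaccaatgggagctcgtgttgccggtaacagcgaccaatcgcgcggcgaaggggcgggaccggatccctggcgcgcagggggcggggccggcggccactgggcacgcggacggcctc
Cry1, chr10:85185055-85185304, minus strand: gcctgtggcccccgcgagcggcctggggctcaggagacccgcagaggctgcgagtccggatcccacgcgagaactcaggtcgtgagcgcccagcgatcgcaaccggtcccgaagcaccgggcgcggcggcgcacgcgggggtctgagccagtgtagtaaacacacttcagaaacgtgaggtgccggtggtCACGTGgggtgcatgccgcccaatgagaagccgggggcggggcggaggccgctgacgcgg

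The RefSeq table held such a window for 9 of the 10 genes, all but Per2. CACGTG was found in the windows of Per1 and Cry1 and in 6.04% of 27026 promoter windows of the same length. TTATGNAA was found once in Per1, 24 bases before the start, and at 2 places in Per3, 205 and 158 bases before it, against 3.24% of all windows. The form TTATGTAA was in Per3 and in 0.862% of all windows. The variant E-box CACGTT was in Cry1, Cry2 and Nr1d1 and in 3.93% of all windows. AGGTCA, the letters that nuclear receptors such as the ROR and REV-ERB proteins read, was in Per1 and in 13.8% of windows, while the longer TAGGTCA, which holds AGGTCA, was in none of the 9 and in 2.25% of windows. Neither the cyclic AMP element TGACGTCA nor its shorter core TGACGT was in any of the 9 windows, against 1.6% and 6.52% of all. Both strands were searched. These matches describe letters in a window and say nothing of binding in this tissue.

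Libraries held 12.82 to 22.55 M counts in genes, so that 3 counts corresponded to 0.133 to 0.234 counts per M counts (CPM), far below any level of the 10 genes. Levels are CPM scaled between libraries by TMM. Adipocyte markers (7 genes) summed to between 9660 CPM in Ensure fasted 5 and 26500 CPM, with Adipoq, the adiponectin gene, at 1080 to 4090 CPM. The 15 epididymis and testis markers were abundant in 5 libraries, at 310 CPM in HFD fasted 24, 649 and 242 CPM in Ensure fed 10 and 12 and 1120 and 9410 CPM in Ensure fasted 2 and 5. Their sum did not exceed 81.8 CPM in the 14 others. Markers of tract epithelium (4 genes) ranged from 215 to 292 CPM in 6 libraries: Ensure fasted 2 and 5, HFD fasted 24 and 26, HFD fed 21, and Ensure fed 16. Elsewhere they reached no more than 47.7 CPM. Together these are 8 libraries, and some results are given below also from fits without the 5 rich in epididymis and testis markers or without all 8. Smooth muscle markers (5 genes) summed to 185 to 606 CPM but to 5800 CPM in Ensure fasted 5. Macrophage markers (4 genes) summed to 276 to 2500 CPM, mesothelium markers (3 genes) to 56.6 to 206 CPM and skeletal muscle markers (3 genes) to 8.68 to 279 CPM. HFD fasted 28 stood apart, with the highest macrophage marker sum of the 19 libraries (2500 CPM), the lowest smooth muscle marker sum (185 CPM), the lowest adipocyte marker sum on HFD (15600 CPM) and the highest shares of reads that were not unique (27.7%) or in no feature (17.32%). In bulk tissue, fewer cells of a type and less RNA per cell cannot be told apart. All HFD libraries were sequenced in lane 7. Of the Ensure fed libraries, 1 was in lane 5, 4 in lane 6 and 1 in lane 7, and of the Ensure fasted libraries 4 were in lane 5 and 1 in lane 6.

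Nr1d1 was the most abundant of the 10 transcripts per kb of exon, at group means of 48.2 to 63.9 CPM per kb, and Npas2 the least, at 1.19 to 1.75 CPM per kb. Between them came Per1 (9.54 to 16.9 CPM per kb), Cry2 (11 to 13.9), Clock (7.44 to 13.2), Dbp (4.5 to 9.04), Per3 (3.66 to 7.28), Per2 (2.87 to 7.02), Cry1 (3.37 to 4.83) and Arntl (2.2 to 4.57). Clock thus stood above its partner Arntl in each group by transcript per kb.

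**Figure D1:**
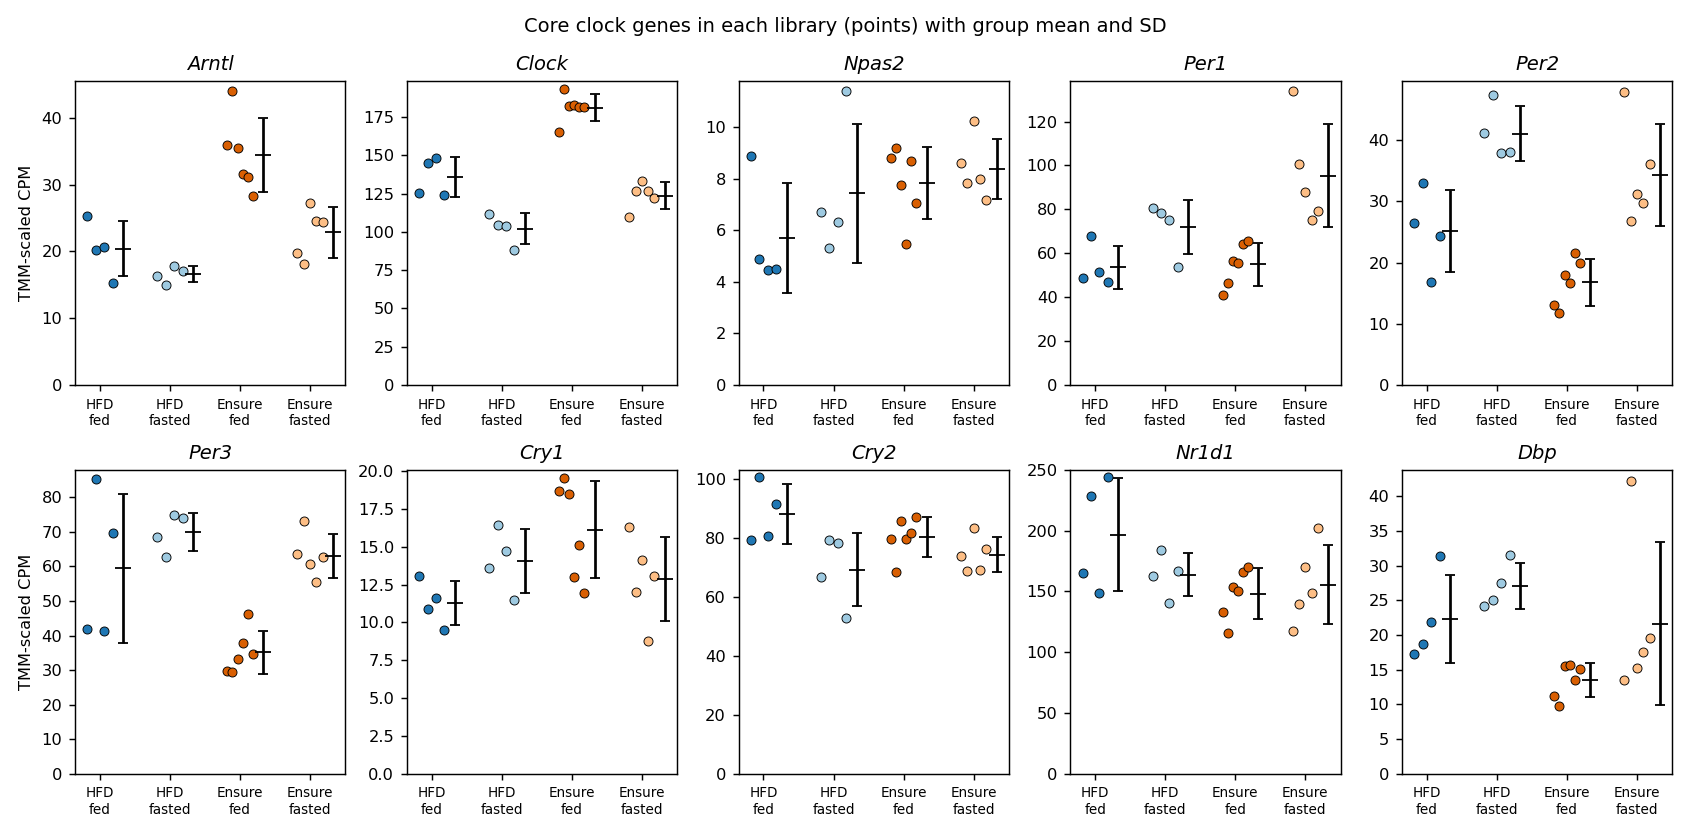
Level of each of the 10 clock genes in every library, in TMM-scaled CPM on linear axes from 0, by group, with 1 point per library and the group mean and SD beside the points. Arntl and Clock were highest in the 6 Ensure fed libraries, where Per2, Per3 and Dbp had their lowest group means.

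In mice on Ensure, 24 hours without food went with lower transcripts of the activators Arntl and Clock and higher transcripts of all 3 Per genes. Clock fell from 181 ± 8.91 to 124 ± 8.86 CPM and Arntl from 34.4 ± 5.54 to 22.8 ± 3.76 CPM (mean ± SD, n = 6 and 5), while Per2 rose from 16.8 ± 3.84 to 34.3 ± 8.28 CPM, or 2.04-fold. In all, 5 of the 10 genes were called at an adjusted p under 0.05, 3 higher and 2 lower. Fed and fasted values were fully separate in these 5. The background in this comparison is high: 20.3% of all 16015 genes were called (10.6% higher and 9.77% lower). Non-overlapping groups were found for 15.0% of genes. The median absolute log2 fold change was 0.57 over the 10 genes and 0.29 over all genes tested. All adjusted p-values are from edgeR's quasi-likelihood test over all genes with Benjamini-Hochberg adjustment. No label states that the libraries came from different animals, and the p-values therefore cover the spread among libraries, which may be technical.

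Arntl, the activator whose transcript cycles in most tissues, was at 28.3 CPM at the lowest, 33.5 at the median and 44.1 at the highest in the Ensure fed libraries, and at 18.2, 19.7, 24.5, 24.6 and 27.3 CPM in the Ensure fasted ones. Every Ensure fasted library was below every Ensure fed library (log2 fold change -0.59 ± 0.14 SE, 95% interval -0.88 to -0.30, edgeR adjusted p = 0.00671). Clock, the partner of Arntl, was at 165.5, 182 and 193 CPM (lowest, median, highest) in Ensure fed libraries and at 109.6, 122, 127, 127 and 133 CPM in Ensure fasted libraries. Its fall (-0.55 ± 0.08, -0.71 to -0.39, edgeR adjusted p = 0.000145) had the smallest adjusted p among the 10 genes in this comparison. Npas2, the alternative partner of Arntl, ranged from 5.48 to 9.18 CPM in Ensure fed and from 7.15 to 10.2 CPM in Ensure fasted libraries, with wide overlap (0.10, -0.36 to 0.56, edgeR adjusted p = 0.786).

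The Per genes encode the repressors that bind the Cry proteins. Per1 was at 40.8, 56.1 and 65.6 CPM (lowest, median, highest) in Ensure fed libraries and at 75.2, 79.2, 88.1, 100.5 and 134 CPM in Ensure fasted libraries (log2 fold change 0.80 ± 0.16, 0.45 to 1.14, edgeR adjusted p = 0.00313). Per2 was at 11.7, 17.3 and 21.5 CPM in Ensure fed libraries and at 26.8, 29.8, 31.1, 36.1 and 47.9 CPM in Ensure fasted libraries (1.03 ± 0.19, 0.64 to 1.42, edgeR adjusted p = 0.00123). Per3, the member of the family least needed for rhythm in mice, was at 29.4, 33.9 and 46.1 CPM in Ensure fed libraries and at 55.5, 60.6, 62.8, 63.5 and 73.0 CPM in Ensure fasted libraries (0.84 ± 0.17, 0.49 to 1.20, edgeR adjusted p = 0.00243). For each of the 3 genes the lowest Ensure fasted library was above the highest Ensure fed library. Ensure fasted 2 had the highest Per1 and Per2 of all 19 libraries. Per1 is also a direct target of the glucocorticoid receptor: 5 other glucocorticoid-responsive genes (Fkbp5, Tsc22d3, Sgk1, Zbtb16 and Klf9) summed to 731 to 969 CPM in Ensure fasted libraries, 376 to 543 CPM in Ensure fed, 449 to 499 CPM in HFD fed and 390 to 497 CPM in HFD fasted libraries, and their part in the Per1 result was not tested.

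The Cry genes, whose proteins are the strongest repressors of the loop, did not pass. Cry1 was at 12.0 to 19.5 CPM in Ensure fed and 8.76 to 16.3 CPM in Ensure fasted libraries (log2 fold change -0.33, -0.67 to 0.02, edgeR adjusted p = 0.16), and Cry2 at 68.3 to 87.0 and 68.9 to 83.2 CPM (-0.11, -0.33 to 0.10, adjusted p = 0.454). Nr1d1 was at 116 to 170.4 CPM in Ensure fed and 117 to 203 CPM in Ensure fasted libraries (0.07, -0.25 to 0.39, adjusted p = 0.773). Its exons overlap those of Thra on the opposite strand by 263 bases, 8.55% of its exon length, and since the strand setting of the counting is not given in the sources used here, reads there may have been shared or lost. Dbp was at 9.80, 14.3 and 15.7 CPM (lowest, median, highest) in Ensure fed libraries and at 13.6, 15.2, 17.6, 19.6 and 42.2 CPM in Ensure fasted libraries, the highest in Ensure fasted 5 (0.68 ± 0.25, 0.16 to 1.21, edgeR adjusted p = 0.0609). Without Ensure fasted 5 the log2 fold change of Dbp was 0.24 (edgeR adjusted p = 0.358). Dbp passed without Ensure fasted 2 (0.78, edgeR adjusted p = 0.0462) or Ensure fasted 7 (0.78, 0.0385), and in DESeq2 with all libraries (0.67, adjusted p = 0.0405). Dbp shares 539 exon bases, 18% of its exon length, with Sphk2 on the opposite strand, so the same limit applies.

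Skeletal muscle markers summed to 16.8, 33.4 and 43.8 CPM (lowest, median, highest) in Ensure fed and to 38.6, 71.4 and 279 CPM in Ensure fasted libraries. Smooth muscle markers did not overlap, at 264 to 354 CPM in Ensure fed and 375 to 5800 CPM in Ensure fasted libraries. The part of both marker sets in these results was not tested. The 5 calls kept their direction and passed in each of 11 fits that left out 1 Ensure library. Without the 5 libraries rich in epididymis and testis markers, Clock (-0.52, edgeR adjusted p = 0.0132) and Per2 (0.95, 0.0259) passed and Arntl (-0.47, 0.115), Per1 (0.56, 0.101) and Per3 (0.76, 0.069) did not. Without all 8 libraries rich in those or in tract epithelium markers, Clock, Per2 and Per3 passed and Arntl and Per1 did not. Within lanes the directions were the same: in lane 5, with 1 fed and 4 fasted libraries, the fasted minus fed difference of mean log2 CPM was -0.69 for Arntl, -0.42 for Clock, 1.24 for Per1, 1.31 for Per2 and 1.06 for Per3. In lane 6, with 4 fed and 1 fasted, it was -0.52, -0.60, 0.51, 1.10 and 0.79 in the same order. With lane as a term in the fit, Arntl no longer passed (-0.61, edgeR adjusted p = 0.0608) and the other 4 did.

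**Figure D2:**
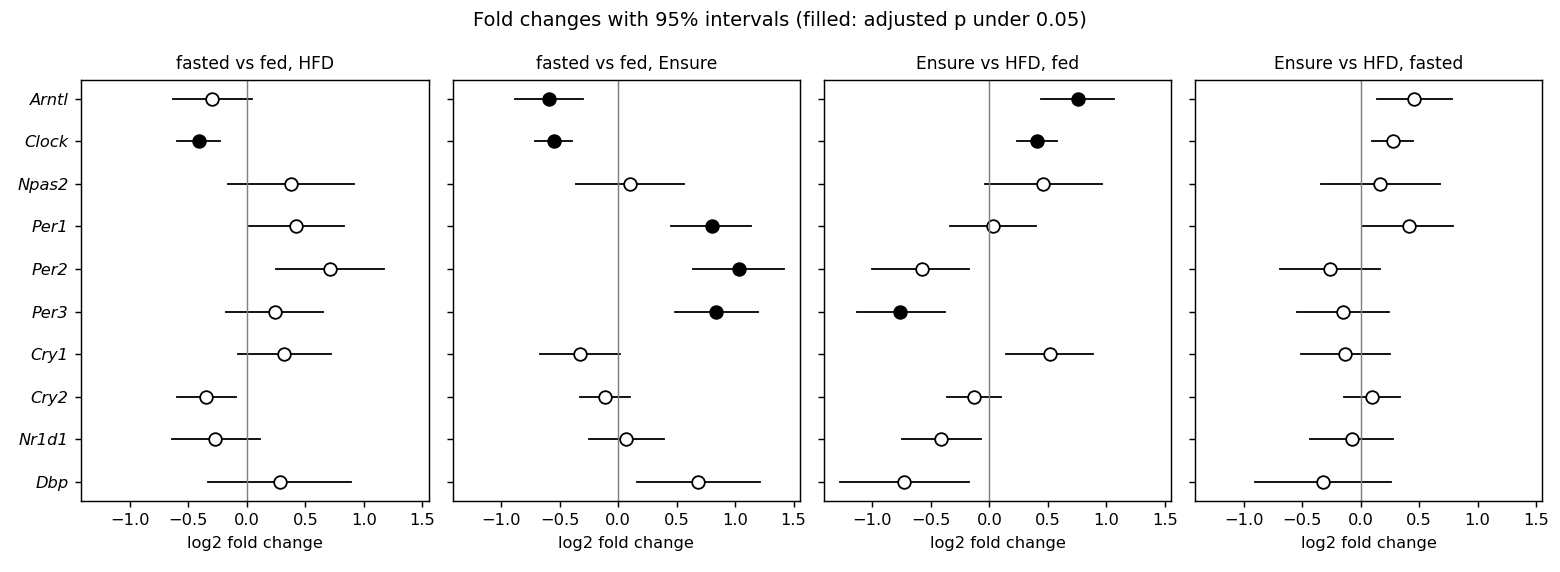
Log2 fold change of each clock gene with its 95% interval in 4 comparisons, with filled points for an adjusted p under 0.05 in edgeR's quasi-likelihood test. After fasting on Ensure the activators Arntl and Clock lie below 0 and the 3 Per genes above it. On HFD, Clock is the 1 filled point.

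In mice on HFD, Clock was lower after fasting, and no other of the 10 genes passed the threshold in edgeR with all libraries. Clock was at 124, 126, 145 and 148.5 CPM in HFD fed libraries and at 88.0, 104, 104.5 and 112 CPM in HFD fasted libraries, with no overlap (136 ± 12.8 to 102 ± 10 CPM, n = 4 and 4, log2 fold change -0.41 ± 0.09, -0.60 to -0.23, edgeR adjusted p = 0.0289). So 1 of the 10 was called, lower, where 1.22% of all genes were called (0.187% higher and 1.03% lower). That call passed in only 1 of the 8 fits that left out 1 HFD library, the one without HFD fed 27, with log2 fold changes of -0.44 to -0.32 and edgeR adjusted p from 0.0374 to 0.129. It also did not pass without the 5 libraries rich in epididymis and testis markers (-0.43, 0.0782), without all 8 marker-rich libraries (-0.50, 0.0588), with library size alone as the scaling (-0.36, 0.0618) or with the 8 HFD libraries fitted alone (-0.38, 0.346). With lane as a term Clock was at -0.41 (edgeR adjusted p = 0.064). All HFD libraries share lane 7, so that term cannot adjust this comparison for lane. The lowest Clock value was in HFD fasted 28, without which the log2 fold change was -0.32 (edgeR adjusted p = 0.0703). Skeletal muscle markers summed to 8.68 to 17.4 CPM in HFD fed and 31.5 to 64.3 CPM in HFD fasted libraries, without overlap, and their part in the HFD results was not tested.

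Per2 was the other gene of the 10 in which the HFD groups did not overlap, against 8.45% of all genes. It was at 16.8, 24.3, 26.4 and 33.1 CPM in HFD fed libraries and at 37.8, 38.0, 41.1 and 47.4 CPM in HFD fasted libraries (log2 fold change 0.71 ± 0.22, 0.25 to 1.17, edgeR adjusted p = 0.134). DESeq2 gave 0.73 with an adjusted p of 0.040, and called Clock as well. Limma voom with quality weights called 4 of the 10: Clock (-0.32, adjusted p = 0.00589), Per1 (0.57, 0.0228), Per2 (0.65, 0.0168) and Nr1d1 (-0.55, 0.0313). Both tools also called more of all genes here than the 195 of edgeR, voom by far the most, in numbers given below. The median log2 fold change over all genes was -0.05 in voom and 0.06 in edgeR. Without the 8 marker-rich libraries edgeR called Npas2 (0.95, adjusted p = 0.0484) and Cry2 (-0.63, 0.0451). Of the HFD libraries, that fit kept only HFD fed 22, 25 and 27 and HFD fasted 23 and 28. HFD fasted 28 had the higher Npas2 (11.4 against 6.70 CPM) and the lower Cry2 (52.8 against 66.6 CPM) of that fasted pair. The fit also called more of all genes than the 195 called with all libraries, as given below. Per1 was at 46.7, 48.6, 51.4 and 68.0 CPM in HFD fed libraries and at 53.6, 75.2, 78.2 and 80.7 CPM in HFD fasted libraries, where HFD fasted 28 lay among the fed values (0.42, 0.02 to 0.83, edgeR adjusted p = 0.317). Per3 was spread widely in HFD fed libraries, at 41.2, 41.9, 69.5 and 85.2 CPM, and narrowly in HFD fasted ones, at 62.7, 68.5, 74.0 and 74.8 CPM (0.24, -0.18 to 0.65, adjusted p = 0.59).

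Arntl was at 15.2, 20.2, 20.7 and 25.3 CPM in HFD fed libraries and at 15.04, 16.3, 17.1 and 17.9 CPM in HFD fasted libraries (log2 fold change -0.30, -0.63 to 0.04, edgeR adjusted p = 0.394). The lowest fed library, HFD fed 27, lay among the fasted ones. Npas2 was at 4.47 to 8.87 CPM in HFD fed and 5.30 to 11.4 CPM in HFD fasted libraries (0.38, -0.16 to 0.92, adjusted p = 0.496). Among the repressors, Cry1 was at 9.53 to 13.1 and 11.4 to 16.4 CPM (0.32, -0.08 to 0.72, adjusted p = 0.448) and Cry2 at 79.1 to 100.7 and 52.8 to 79.4 CPM (-0.35, -0.60 to -0.09, adjusted p = 0.186). The Cry2 groups overlapped where HFD fasted 24, at 79.4 CPM, lay above HFD fed 21, at 79.1 CPM. Nr1d1 was at 149 to 244 CPM in HFD fed and 141 to 184 CPM in HFD fasted libraries (-0.27, -0.64 to 0.11, adjusted p = 0.496). Dbp was at 17.2, 18.8, 21.9 and 31.4 CPM in HFD fed libraries and at 24.2, 25.1, 27.5 and 31.5 CPM in HFD fasted libraries (0.28, -0.33 to 0.89, adjusted p = 0.677).

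Whether the fasting responses differed between the diets was tested as the Ensure response minus the HFD response. None of the 10 genes passed in edgeR, and 0 of all 16015 genes were called. At an unadjusted p under 0.05 there were 1234 genes, 2 of the 10 among them. These were Cry1, whose values moved down on Ensure and up on HFD (difference -0.65 ± 0.25, -1.18 to -0.12, edgeR adjusted p = 0.568), and Per3 (0.61 ± 0.26, 0.06 to 1.15, edgeR adjusted p = 0.609). For Clock the difference was -0.14 (-0.38 to 0.10) and for Per2 0.32 (-0.28 to 0.92), for Arntl -0.29 (-0.73 to 0.15) and for Per1 0.37 (-0.16 to 0.91). The intervals of these 4 include 0. DESeq2 called 59 genes in all and 0 of the 10, and limma voom with quality weights called 1170 genes and 1 of the 10, Nr1d1 (0.78, adjusted p = 0.0342). Arntl and the Per genes passed on Ensure and not on HFD, but a difference between the diets in their response was not shown.

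Among fed mice, Arntl and Clock were higher and Per3 lower on Ensure than on HFD. Arntl was at 34.4 ± 5.54 against 20.4 ± 4.12 CPM (n = 6 and 4, log2 fold change 0.76 ± 0.15, 0.44 to 1.07, edgeR adjusted p = 0.00904) and Clock at 181 ± 8.91 against 136 ± 12.8 CPM (0.41 ± 0.08, 0.24 to 0.58, adjusted p = 0.00878). In both, every Ensure fed library was above every HFD fed library. Per3 was at 35.2 ± 6.21 against 59.5 ± 21.6 CPM (-0.76 ± 0.18, -1.13 to -0.38, edgeR adjusted p = 0.0227). The Per3 groups overlapped, since HFD fed 21 and 25 lay at 41.9 and 41.2 CPM and Ensure fed 16 at 46.1 CPM. These were 3 of the 10 genes, 2 higher and 1 lower, where 4.26% of all genes were called (2.09% higher and 2.17% lower).

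The groups did not overlap in 3 of the 10 (Arntl, Clock and Dbp), against 13.3% of all genes. Dbp, the output of the loop, was at most 15.7 CPM in the 6 Ensure fed libraries and at least 17.2 CPM in the 4 HFD fed ones (-0.73 ± 0.26, -1.28 to -0.17, edgeR adjusted p = 0.134). Per2 (-0.58, -1.0 to -0.17, adjusted p = 0.107), Cry1 (0.52, 0.14 to 0.89, adjusted p = 0.11), Nr1d1 (-0.41, -0.75 to -0.07, adjusted p = 0.17) and Npas2 (0.46, -0.04 to 0.96, adjusted p = 0.32) did not pass. Per1 was at 54.9 ± 9.74 and 53.7 ± 9.76 CPM (0.03, -0.34 to 0.40, adjusted p = 0.957) and Cry2 at 80.3 ± 6.65 and 88 ± 10.1 CPM (-0.13, -0.36 to 0.10, adjusted p = 0.596).

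Smooth muscle markers also separated these groups, at 419 to 523 CPM in HFD fed and 264 to 354 CPM in Ensure fed libraries, and their part in the results was not tested. Lane differs between the groups too. With lane as a term 0 of the 10 passed, at nearly the same fold for Clock (0.42) and Per3 (-0.78) and a smaller one for Arntl (0.47), with edgeR adjusted p = 1 for each. In lane 7, the lane that both groups share, Ensure fed 18 minus the mean of the 4 HFD fed libraries was 0.48 for Arntl, 0.42 for Clock, -0.70 for Per3 and -0.50 for Dbp on the log2 CPM scale. The Per3 call was lost when any of HFD fed 22, HFD fed 27, Ensure fed 1, Ensure fed 9 or Ensure fed 18 was left out (-0.90 to -0.53 over all 10 omissions, edgeR adjusted p up to 0.121). Per2 passed without HFD fed 25 (-0.73, edgeR adjusted p = 0.0361). Without the 5 libraries rich in epididymis and testis markers, Per3 did not pass (-0.75, 0.0768) and Dbp did (-0.83, 0.0342). Without all 8 marker-rich libraries Clock did not pass (0.39, 0.147).

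Among fasted mice, 0 of the 10 genes were called between the diets in edgeR, where 2.82% of all genes were (1.63% higher and 1.19% lower). At an unadjusted p under 0.05 there were 3 of the 10 and 3253 of all 16015 genes. Arntl was at 22.8 ± 3.76 CPM on Ensure and 16.6 ± 1.2 CPM on HFD without overlap (n = 5 and 4, log2 fold change 0.46 ± 0.15, 0.14 to 0.78, edgeR adjusted p = 0.105), against 3.99% of all genes without overlap. Clock was at 124 ± 8.86 and 102 ± 10 CPM (0.28 ± 0.08, 0.10 to 0.45, adjusted p = 0.0795), and Per1 at 95.4 ± 23.6 and 71.9 ± 12.4 CPM (0.41 ± 0.18, 0.02 to 0.79, adjusted p = 0.223). DESeq2 called 1 of the 10, Clock (adjusted p = 0.0183), and limma voom called Arntl and Clock higher and Dbp lower (adjusted p = 0.0327, 0.0113 and 0.0461). Both tools also called more of all genes here than the 452 of edgeR, in numbers given below. In edgeR the 7 genes other than Arntl, Clock and Per1 had log2 fold changes of -0.32 to 0.17. For Dbp (-0.32, adjusted p = 0.554) the value turned on Ensure fasted 5, without which it was -0.74 (edgeR adjusted p = 0.0349). No lane holds fasted libraries of both diets, so lane and diet cannot be told apart here.

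The order of the 4 groups differed among the genes and did not follow the division into activators and repressors. Arntl was highest in Ensure fed, then Ensure fasted, HFD fed and HFD fasted libraries, with group means spanning 2.08-fold, and Clock was highest in Ensure fed, then HFD fed, Ensure fasted and HFD fasted libraries, spanning 1.77-fold. For both genes the Ensure fed libraries stood apart from the next group and the other neighbours overlapped. Per2 and Per3 had the same order, HFD fasted, Ensure fasted, HFD fed and Ensure fed, over 2.44-fold and 1.99-fold, with Ensure fed lowest. Dbp ran from HFD fasted through HFD fed and Ensure fasted to Ensure fed over 2.01-fold. In these 3 genes each group overlapped its neighbour in the order. Per1 ran from Ensure fasted through HFD fasted and Ensure fed to HFD fed over 1.78-fold, also with overlap between neighbours. Cry1, a repressor, had its highest mean in Ensure fed libraries as Arntl and Clock did, followed by HFD fasted, Ensure fasted and HFD fed ones. Npas2, an activator, ran from Ensure fasted through Ensure fed and HFD fasted to HFD fed. Cry2 ran from HFD fed through Ensure fed and Ensure fasted to HFD fasted, and Nr1d1 from HFD fed through HFD fasted and Ensure fasted to Ensure fed. These 4 spanned 1.27-fold to 1.47-fold, and all neighbours overlapped.

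The relation of the other 9 genes to Arntl was examined library by library, as the correlation of each with Arntl in log2(CPM + 0.5). Over 19 libraries Clock rose with Arntl (Pearson r = 0.84, Spearman rho = 0.86, permutation p adjusted over 9 pairs = 9e-05 and 0.000135). Per3 (r = -0.84, rho = -0.83, adjusted permutation p = 9e-05 for both), Dbp (r = -0.84, rho = -0.84, 9e-05 and 0.00018) and Per2 (r = -0.77, rho = -0.77, 0.000495 and 0.000427) were low where Arntl was high. Their raw permutation p-values for r were 2e-05 for Clock and Per3, 3e-05 for Dbp and 0.00022 for Per2. Cry1 (r = 0.49, rho = 0.39), Npas2 (0.40, 0.42), Per1 (-0.40, -0.41), Nr1d1 (-0.42, -0.35) and Cry2 (0.14, 0.22) did not pass, at adjusted permutation p from 0.0581 to 0.582 for r and from 0.117 to 0.354 for rho. Without Ensure fed 9 and HFD fasted 24, the libraries farthest from the median of Arntl, r was 0.79 for Clock, -0.83 for Per3, -0.80 for Dbp and -0.67 for Per2.

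**Figure D3:**
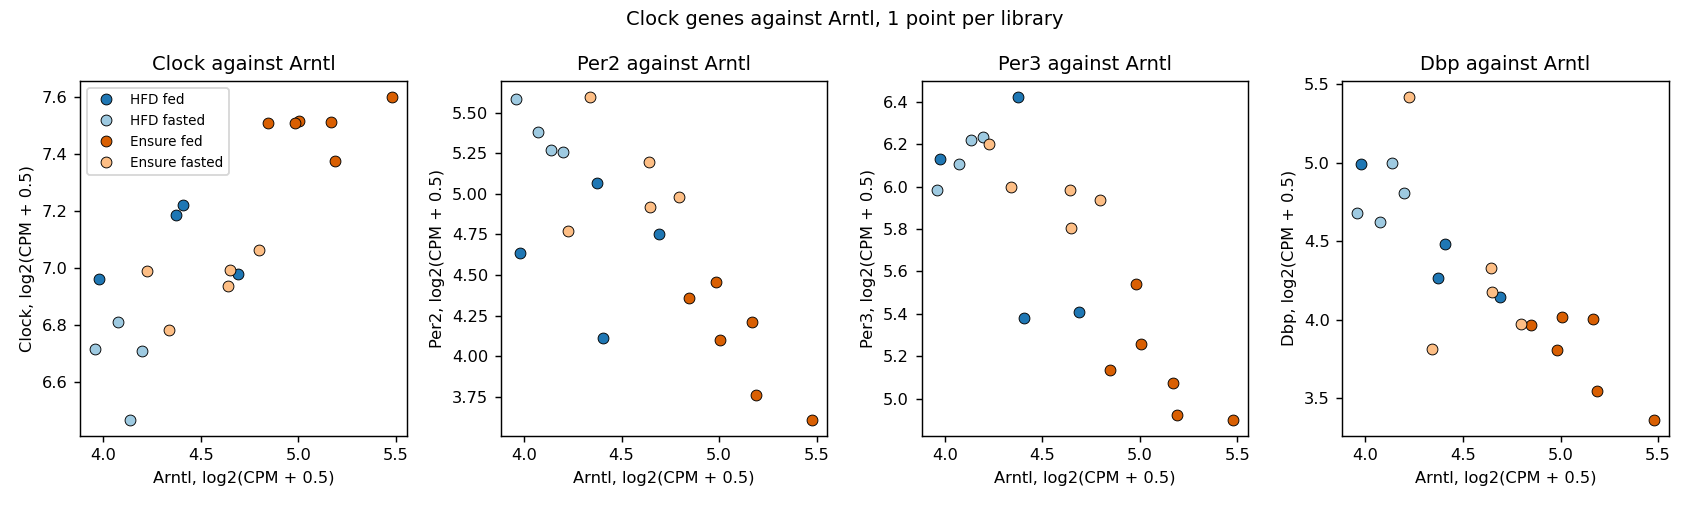
Clock, Per2, Per3 and Dbp against Arntl, each in log2(CPM + 0.5), with 1 point per library and colours for the groups. Clock rises with Arntl, and Per2, Per3 and Dbp fall from the HFD fasted libraries at low Arntl to the Ensure fed libraries at high Arntl.

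Much of this relation lay between groups. The permutations over 19 libraries did not keep to groups, so their p-values also carry the differences between groups described above. With group means subtracted, Dbp had r = -0.63 (adjusted permutation p = 0.0265) and rho = -0.54 (adjusted permutation p = 0.0555) with Arntl. Per3 (r = -0.53, adjusted permutation p = 0.0654), Per2 (r = -0.35, 0.213) and Clock (r = 0.22, 0.366) did not pass. These permutations shuffled the centred values across groups as if all 19 were free, so their p-values tend to be too small. Dbp, whose rho did not pass, is therefore not taken as passing. Within lane 7, which holds 9 libraries of 3 groups, r was -0.88 for Dbp (adjusted exact permutation p = 0.0155), -0.75 for Per3 and 0.73 for Clock (0.0812 for each) and -0.63 for Per2 (0.167). By rho none of these genes passed in lane 7: Dbp -0.77, Clock 0.68 and Per2 -0.68 (adjusted exact permutation p = 0.151 for each) and Per3 -0.42 (0.607). The only Ensure fed library of that lane, Ensure fed 18, had its highest Arntl (28.3 CPM). Among the 6 Ensure fed libraries alone, r was -0.93 for Nr1d1 (adjusted exact permutation p = 0.0625), -0.85 for Per2 and 0.88 for Cry1 (0.0667 for each), -0.79 for Dbp (0.095) and 0.29 for Clock (0.578). None passed there. Ensure fed 1 and 9 had the highest Arntl of that group (36.0 and 44.1 CPM) and its lowest Per1, Per2, Per3, Nr1d1 and Dbp. Without the 5 libraries rich in epididymis and testis markers, r was -0.97 for Dbp, -0.82 for Per3, -0.73 for Per2 and 0.79 for Clock over 14 libraries.

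Dividing each target by Arntl in the same library removes the scaling between libraries. Per2 was at 0.811, 1.32 and 1.63 times Arntl (lowest, median, highest) in HFD fed libraries, 2.12, 2.37 and 3.15 in HFD fasted, 0.265, 0.518 and 0.707 in Ensure fed and 1.14, 1.47 and 2.43 in Ensure fasted libraries. So Per2 counts exceeded those of Arntl in each fasted library and stayed below them in each Ensure fed library. Per3 was at 0.667, 1.07 and 1.48 times Arntl in Ensure fed and at 2.22, 2.57 and 4.01 in Ensure fasted libraries, and at 1.66, 3.10 and 4.56 in HFD fed and 4.17, 4.19 and 4.33 in HFD fasted libraries. Per1 was at 1.06, 1.68 and 2.32 times Arntl in Ensure fed and at 3.06, 3.24 and 6.78 in Ensure fasted libraries, and at 1.92, 2.77 and 3.36 in HFD fed and 3.14, 4.58 and 5.20 in HFD fasted libraries. For all 3 Per genes the ratio in fasted Ensure libraries lay above that in fed ones without overlap. This follows from the levels of Arntl and of these genes, which were already separate in opposite directions. The HFD groups did not overlap in the Per2 ratio and did in those of Per1 and Per3. For Dbp the ratio was at most 0.536 in Ensure fed libraries and at least 0.556 in all others. Between the fed groups this too follows from the already separate levels of Dbp and Arntl. For Nr1d1 it was 2.63 to 6.03 in Ensure fed, 5.94 to 8.28 in Ensure fasted, 6.54 to 16.0 in HFD fed and 7.89 to 12.3 in HFD fasted libraries, while the ratio of Clock to Arntl overlapped between all 4 groups at 4.39 to 8.14. These ratios are of counts not divided by transcript length, and no test was made on them.

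**Figure D4:**
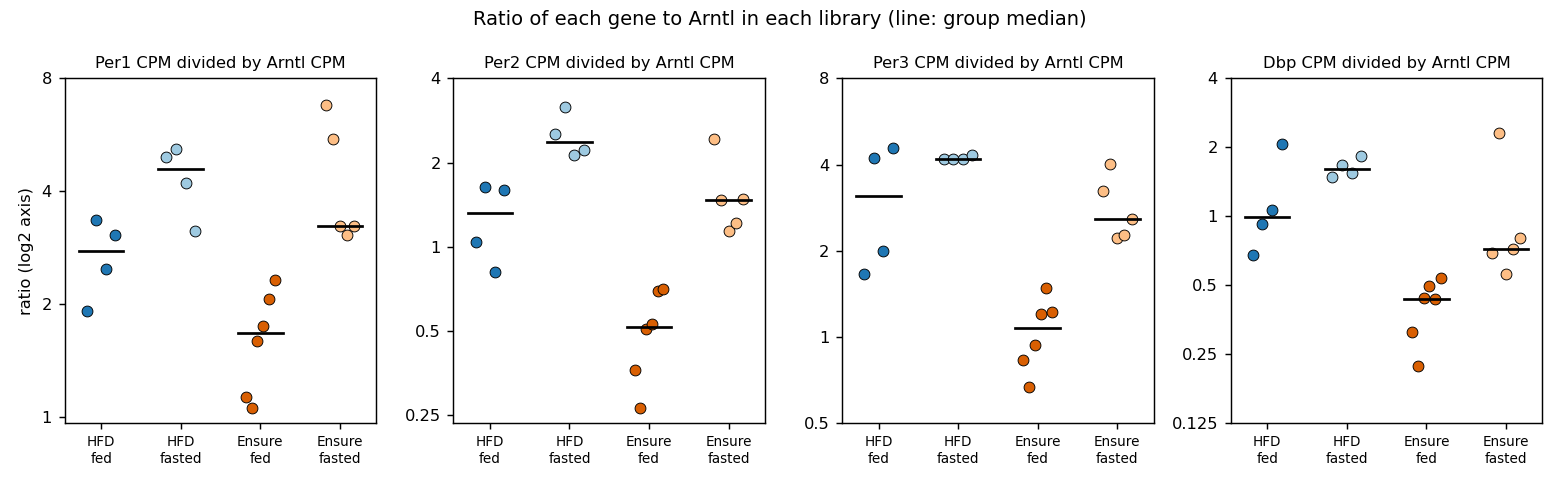
Ratio of Per1, Per2, Per3 and Dbp CPM to Arntl CPM in each library, on log2 axes, with 1 point per library and a line at the group median. The Ensure fed libraries have the lowest median in each panel, and no Ensure fed library reaches an Ensure fasted one.

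Other genes of the clock were taken from a list of 26, of which 25 passed the filter on low counts. Rorb did not. After fasting on Ensure 4 of the 25 rose and 2 fell, where 20.3% of all genes were called (10.6% higher and 9.77% lower). The median absolute log2 fold change was 0.32 over the list and 0.29 over all genes, so the list lay near the background. On HFD 0 were called in edgeR, where 1.22% of all genes were, and 4 of the 25 were at an unadjusted p under 0.05 against 2375 of all 16015 genes. In the difference between the responses 0 were called and 1 was at an unadjusted p under 0.05, against 1234 of all genes. Among fed mice 1 was higher and 1 lower on Ensure (2.09% and 2.17% of all genes), and among fasted mice 1 was lower (1.19% of all genes). DESeq2 called 0 on HFD, where it called 643 genes in all, and 0 in the difference (59 in all). It called 5 higher and 3 lower after fasting on Ensure (4466 in all), 2 and 4 between the fed groups (1539 in all), and 1 and 1 between the fasted groups (1344 in all). Limma voom with quality weights called 2 higher and 2 lower on HFD (2974 in all), 6 and 5 on Ensure (5638), 2 and 0 in the difference (1170), 3 and 10 between the fed groups (5441) and 2 and 4 between the fasted groups (3418).

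Tef, a relative of Dbp that binds the same D-box, rose after fasting on Ensure. It was at 70.9, 93.8 and 109 CPM (lowest, median, highest) in Ensure fed libraries and at 124, 126, 132, 134 and 146 CPM in Ensure fasted libraries (log2 fold change 0.54 ± 0.12, edgeR adjusted p = 0.00484). Among fed mice it was lower on Ensure than on HFD, where it was at 119, 124, 164 and 165 CPM (-0.65 ± 0.12, adjusted p = 0.00801), again with no overlap. Nfil3, the repressor that competes for the D-box, fell after fasting on Ensure and was higher on Ensure than on HFD among fed mice. It was at 12.5, 17.9 and 24.6 CPM in Ensure fed libraries, at 6.10, 9.49, 10.0, 12.0 and 13.4 CPM in Ensure fasted libraries (-0.86 ± 0.24, edgeR adjusted p = 0.021), and at 4.83, 5.49, 7.79 and 12.2 CPM in HFD fed libraries (Ensure against HFD 1.29 ± 0.27, adjusted p = 0.0119). Between the fed groups the Tef call was lost without HFD fed 27 (-0.53, edgeR adjusted p = 0.0674) and the Nfil3 call without HFD fed 22 (1.12, 0.0501) or HFD fed 27 (1.2, 0.05). Hlf, the third D-box activator, did not pass (1.25 after fasting on Ensure) and stood at 52.7 CPM in Ensure fasted 5 against 5.80 to 13.9 CPM in the other Ensure fasted libraries.

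In the second loop, Nr1d2, the relative of Nr1d1, and Rora, a nuclear receptor that activates Arntl, did not pass in any of the 5 comparisons in edgeR. Of 8 kinases, ubiquitin ligases and peptidases that act on the Per and Cry proteins, Gsk3b fell after fasting on Ensure, from 143 to 156 CPM over the 6 fed libraries to 114 to 129 CPM over the 5 fasted ones (-0.28 ± 0.06, adjusted p = 0.00645). Of 6 rhythmic outputs, 3 rose after fasting on Ensure, where 10.6% of all genes did. These were the cell cycle kinase gene Wee1 (1.16 ± 0.23, adjusted p = 0.00208), Tspan4 (0.72 ± 0.14, adjusted p = 0.00197) and Por, the reductase that serves cytochrome P450 enzymes (0.58 ± 0.18, adjusted p = 0.0298). The Por call was lost when any of Ensure fed 1, 9, 12, 16 or 18 or Ensure fasted 7, 8 or 17 was left out (0.46 to 0.57 in those 8 fits, edgeR adjusted p up to 0.0701). Wee1 was highest in Ensure fasted 5, at 33.4 CPM, and without that library its log2 fold change was 0.79 (edgeR adjusted p = 0.00414).

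Bhlhe41 (DEC2), a repressor that competes with the activators for E-boxes, was lower on Ensure than on HFD among fasted mice. It was at 11.2, 13.04, 16.5, 17.6 and 19.3 CPM in Ensure fasted and at 25.0, 26.7, 30.8 and 90.9 CPM in HFD fasted libraries (-1.48 ± 0.31, edgeR adjusted p = 0.0187), the highest in HFD fasted 28, without which it was -0.84 (adjusted p = 0.0321). That library also held the most macrophage markers and the fewest smooth muscle markers, and their part in this value was not tested. Bhlhe40, Arntl2, Ciart, Cipc and Timeless passed in no comparison in edgeR. With the 9 fasted libraries fitted alone, Bhlhe41 did not pass (-1.46, edgeR adjusted p = 0.275). With lane as a term, the calls of Nfil3, Gsk3b, Wee1 and Por after fasting on Ensure and those of Tef, Nfil3 and Bhlhe41 between the diets were lost. Without the 5 libraries rich in epididymis and testis markers, the Ensure calls of Tef (0.54, edgeR adjusted p = 0.0552), Nfil3 (-0.70, 0.203), Gsk3b (-0.27, 0.0941) and Wee1 (0.71, 0.0546) were lost as well.

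**Figure D5:**
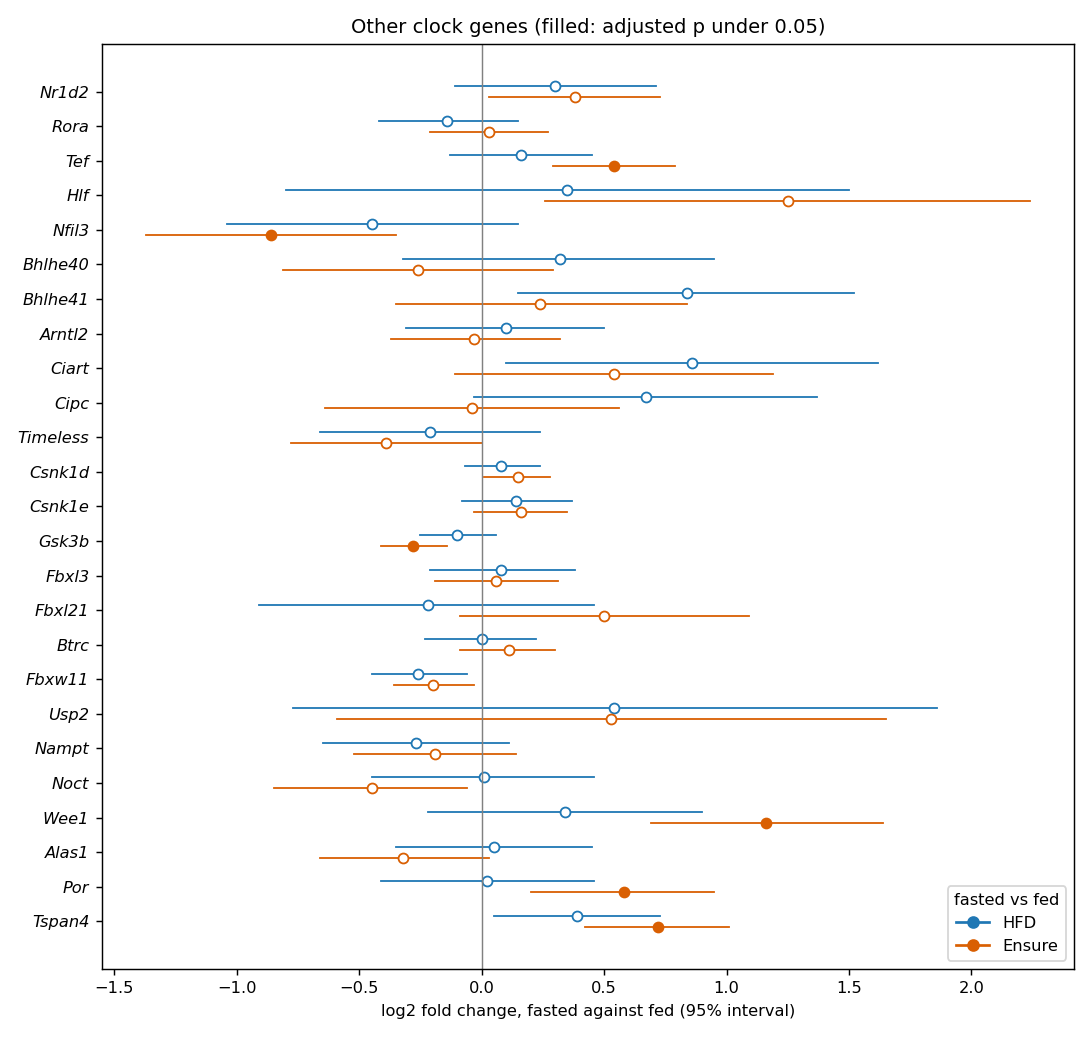
Log2 fold change after fasting, with its 95% interval, for the 25 other clock genes tested, on HFD and on Ensure, with filled points for an adjusted p under 0.05 in edgeR's quasi-likelihood test. All 6 filled points, Tef, Nfil3, Gsk3b, Wee1, Por and Tspan4, belong to Ensure.

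The genes whose levels followed Arntl most closely with group means subtracted, over 19 libraries and 11308 genes of at least 5 CPM, were Aoah (r = 0.73), Slc13a3 (0.71), Gtf3c6 and Prdx6 (0.68 each) and Mogat2 (0.67). With group means left in, r was 0.91 for Prdx6 and 0.90 for Mogat2. Those most like Dbp were Hnrnpa2b1 (0.85), Fam3c (0.84), Mapk9, Zkscan14 and Ptgs2 (0.83 each). The second list leaned on Ensure fasted 5, where Dbp was highest: without it the same r was 0.50 to 0.63, and that of the genes most like Arntl 0.59 to 0.68. The points share libraries, depth and tissue makeup, and these are descriptions.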

How the data were processed

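Poly-adenylated RNA of whole perigonadal fat was sequenced on a HiSeq2000 after TruSeq library preparation, per the labels' protocols. The submitters' processing notes name the build mm9 and the tools TopHat2 2.1, HTSeq 0.6.1 and bcl2fastq 1.8.4. Strand mode: not given in the sources used here. Deposited were the authors' raw read counts per gene symbol for each library, not normalized. HTSeq's summary lines (no feature 13.01 to 17.32%, ambiguous 0.695 to 0.893%, not unique 20.67 to 27.7% of a library) entered neither library sizes nor tests. Libraries held 12.82 to 22.55 M counts in genes, with a median of 20.23 M, and 3202 genes were at 0 throughout. Intervals and floors cover counting error only where they come from counts of 1 library. The chi-square per gene between the 37 pairs of libraries within groups was 6.77 to 272, so no library was treated as a copy of another one.

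Differences were tested with edgeR 4.0.16 (quasi-likelihood, R 4.3.3) in 1 fit of 19 libraries and 4 groups, with TMM scaling, filterByExpr at a minimum count of 10 and calls at a Benjamini-Hochberg adjusted p under 0.05 over 16015 genes. Standard errors are the size of the log2 fold change over the root of its F value. There were 5 comparisons. Pearson's r and Spearman's rho were given 2-sided permutation tests (100000 resamples over 14 or more libraries, exact below that). Alternatives were DESeq2 1.42.0 and its size factors, limma voom with quality weights (limma 3.58.1), library size alone, no filter, a minimum count of 50, fits of the compared groups alone, lane as a term, leaving out each library, and leaving out marker-rich libraries. The set without tract epithelium and the correlations within lane 7 and within Ensure fed were added after seeing the data. The fit was checked on simulated counts.

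The members, gene lists and marker lists were chosen with earlier results of these data known. All 10 members are named in each comparison, other listed clock genes where 10 or fewer were called, and the 5 genes most like Arntl and Dbp by group-centred r, passing over predicted names. Of the listed clock genes, 1 is not reported here and is in none of the list counts. RefSeq promoter windows and GENCODE vM21 exon lengths are of GRCm38, and the counts are not of that annotation.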

Additional observations from a re-analysis of the deposited data

Results flagged for a closer look

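Npas2 in HFD fed 21, at 8.87 CPM, stood apart from the other 3 HFD fed libraries, of which the nearest was at 4.89 CPM. The gap was 0.905 of the whole range of the group. HFD fed 21 is also the HFD fed library with the highest tract epithelium markers (235 CPM), and their part in this value was not tested. Dbp in Ensure fasted 5, at 42.2 CPM, stood apart from the other 4 Ensure fasted libraries, of which the nearest was at 19.6 CPM, with a gap of 0.79 of the range. Ensure fasted 5 held the most epididymis and testis (9410 CPM) and smooth muscle markers (5800 CPM) of all 19 libraries, and their part in the Dbp value was not tested. Of 40 groups examined, chance alone flags about 1 in 20.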

How the results depend on the processing

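Numbers of the 10 genes called changed under these settings. After fasting on HFD (1 in the test as reported), 0 passed with the compared groups alone, library size alone, lane as a term or without the 5 libraries rich in epididymis and testis markers, 2 without the 8 marker-rich libraries or with DESeq2, 4 with limma voom, and 0 to 1 with a library left out. After fasting on Ensure (5), 2 passed without the 5 libraries, 3 without the 8, 4 with lane, 6 with DESeq2, and 5 to 6 with a library left out. For the difference (0), 1 passed with voom and 0 to 0 with a library left out. Between fed diets (3), 8 passed with voom, 0 with lane, 5 with the compared groups alone and 2 to 4 with a library left out. Without the 8 marker-rich libraries fewer passed between fed diets, since Clock was lost and no other of the 10 genes was gained. Between fasted diets (0), 3 passed with voom, 1 with DESeq2 and 0 to 1 with a library left out. DESeq2 size factors, no filter and a minimum count of 50 changed none of these 5 numbers.

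Over all genes, the count for HFD (195) was 2974 with voom, 643 with DESeq2, 62 with lane, 910 without the 8 and 1 with the compared groups alone. For Ensure (3255) it was 5638 with voom, 760 with lane, 1145 without the 5 and 772 without the 8. For the difference (0) it was 1170 with voom, 59 with DESeq2 and 1 without the 8. Between fed diets (682) it was 5441 with voom, 1539 with DESeq2, 2 with lane, 213 without the 8 and 2933 with the compared groups alone. Between fasted diets (452) it was 3418 with voom, 1344 with DESeq2, 0 with lane, 1598 without the 8 and 1 with the compared groups alone. With a library left out, these counts ran from 23 to 141, 2288 to 3810, 0 to 0, 239 to 878 and 209 to 767.

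Directions that reversed were all of differences that did not pass. For Npas2 after fasting on Ensure the log2 fold change was -0.07 with lane, -0.01 without the 5 and 0.00 without the 8. Between fasted diets Nr1d1 was at 0.23 with voom, 0.35 with lane, 0.15 without the 5 and 0.09 without the 8, Npas2 at -0.14 with lane and -0.08 without the 8, and Per2 at 0.19 with lane. Per1 between fed diets was at -0.10 without the 8. With a library left out, Nr1d1 on Ensure ran from -0.04 to 0.11, Dbp in the difference from -0.07 to 0.50, and Cry2 between fasted diets from -0.03 to 0.17. The correlation with Arntl turned for Cry2 with group means subtracted (-0.25) and among Ensure fed libraries (-0.83) and for Cry1 in lane 7 (-0.13). It passed for Cry1 without the 5 (0.66). It is not taken as passing for Dbp with group means subtracted (-0.63), since those permutations shuffled centred values across groups and rho did not pass. It no longer passed for Clock, Per2 and Per3 with group means subtracted (0.22, -0.35, -0.53), in lane 7 (0.73, -0.63, -0.75) and among Ensure fed libraries (0.29, -0.85, -0.65), nor for Dbp among the latter (-0.79). Fewer libraries enter the last 2 settings, and otherwise the cause was not tested. Scaling by library size alone, the only other scaling applied to the levels, moved no group mean of the 10 genes by 1 SD in 40 cases. No paired analysis was possible because the library numbers are not shared between groups.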

Other observations

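Within the HFD fed group, HFD fed 22 and 27 had the highest values of several clock genes. Per3 was at 85.2 and 69.5 CPM there against 41.9 and 41.2 CPM in HFD fed 21 and 25. Nr1d1 was at 229 and 244 CPM against 166 and 149 CPM, Cry2 at 100.7 and 91.6 CPM against 79.1 and 80.6 CPM, and Tef at 164 and 165 CPM against 124 and 119 CPM. Por, a rhythmic output in many tissues, was at 397 and 342 CPM against 245 and 235 CPM. Per1, Per2, Clock, Npas2 and Dbp did not follow this division: Per1 was at 68.0 CPM in HFD fed 22 but at 46.7 CPM, the lowest of the group, in HFD fed 27. Arntl and Cry1 went the other way. Arntl was at 20.23 and 15.25 CPM in HFD fed 22 and 27 against 25.32 and 20.71 CPM in HFD fed 21 and 25. Cry1 was at 10.88 and 9.53 CPM against 13.05 and 11.62 CPM. The libraries were set side by side after their values were seen, and no test was made.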
